A study of Mus musculus with 40 samples.

Results

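In the virgin mouse mammary gland, 93 genes were at least 1 log2 unit lower after an injection of prolactin in control mice and in Ezh2 knockout mice alike, and they are followed here through pregnancy. They were chosen among the 14273 genes, of 22552 listed, that reached 1 FPKM (fragments per kilobase of transcript and per unit of sequencing depth, so levels of different genes can be compared) in any group. A gene entered when log2(FPKM + 1) was lower by 1 or more in the prolactin-treated than in the untreated virgin value of each genotype. A log2 unit below always means a difference on this scale, which understates the change of genes with low values. The virgin values chose the genes, so their differences after prolactin are a description, with no test. All values of pregnant glands were outside the choice, except through the minimum level.

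The series measured polyadenylated RNA of whole mammary tissue from outbred mice in 31 libraries of 12 groups, with 2 libraries in 5 groups and 3 in the others, and the deposited table gives 1 pooled value per gene and group. There is therefore no replicate error for any value below, no test of a difference was possible, and "higher" and "lower" compare single values. Controls carried only the MMTV-Cre transgene, whose promoter is active mainly in mammary epithelium. Ezh1 knockouts (E1-/-) lacked Ezh1 in all tissues. Ezh2 knockouts carried floxed Ezh2 on both alleles together with the Cre transgene of the controls, for deletion in the mammary gland, and the fourth genotype, called the compound mutant here, had the same Ezh2 deletion and 1 inactive Ezh1 allele. Ezh1 and Ezh2 encode the alternative histone H3 lysine 27 methyltransferases of Polycomb repressive complex PRC2. Virgin groups came from controls and Ezh2 knockouts only, at 12 weeks of age and in estrus. The gland of the left side was the untreated sample, and the gland of the right side was taken 2 h after 5 µg of prolactin per g of body weight. Anaesthesia, the first operation and the hours between the operations thus came with the hormone and cannot be told apart from it. Pregnant glands were untreated and came from all 4 genotypes at days 13 and 18, called p13 and p18.

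Prolactin signals through its receptor, the kinase JAK2 and the transcription factor STAT5, which switches on milk protein genes in secretory epithelium and its own inhibitors Cish and the Socs genes. The virgin gland is mainly a fat pad of adipocytes, fibroblasts, vessels and immune cells, through which a sparse tree of epithelial ducts runs. During pregnancy that tree fills the pad with milk-producing alveoli, so the share of RNA from fat and stroma declines in a sample of the whole gland.

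Several facts of the libraries bear on what follows. Ezh1 read 1.06 FPKM in the Ezh1 knockout against 14.7 in the control at p13. Ezh2 at p13 read 13.7 in the Ezh2 knockout and 9.54 in the compound mutant, against 12.9 in the control. At p18 Ezh2 read 6.41 and 6.24 in the same groups, against 10.0 in the control. In Ezh2 knockout virgins it was 5.55 untreated and 4.64 after prolactin, against 4.98 and 6.74 in controls. Whole-tissue values thus do not settle the Ezh2 label, and the group names follow the labels. In the virgin groups the lymphocyte markers moved in opposite directions. Their summed FPKM was 46.7 untreated and 353 after prolactin in controls, but 429 and 32.9 in Ezh2 knockouts, although the lymph node was removed according to the labels. None of the 93 genes is among those markers. The p13 control and p13 Ezh1 knockout also carried skeletal muscle transcripts, with summed FPKM of 11380 and 2864 over 16 muscle genes, against 54.4 in the Ezh2 knockout and 67.9 in the compound mutant. Counts are given with and without the 5 muscle genes of the set where that matters. The known prolactin response was present in both genotypes. Cish was 6.64 FPKM untreated and 62.3 after prolactin in controls and 11.0 and 51.1 in Ezh2 knockouts, Socs2 was 11.5 and 49.98 against 9.52 and 51.2, and Socs3 was 5.597 and 80.2 against 6.17 and 58.8. Over 20 feedback and target genes of STAT5, 8 were higher by 1 log2 unit or more in controls and 6 in Ezh2 knockouts, and none was lower. Over all 14273 genes, 4.76% were higher by the same threshold in controls and 2.75% in Ezh2 knockouts.

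Among all 14273 genes, 245 were lower by the threshold in controls (1.72%) and 582 in Ezh2 knockouts (4.08%). The 93 genes lowered in both, 0.652% of all, are 38.0% of the first list and 16.0% of the second. The difference was larger in controls for 70 of the 93 genes. Protein-coding genes made up 79 of the set and small RNA genes 11, of which 8 were microRNA genes. The other 3 were the long noncoding RNAs H19 and Gm14492 and the pseudogene Hmga2-ps1. Small RNA genes were 11.8% of the set against 2.23% of all 14273 genes. Many members lay near the threshold. The smaller of the 2 differences was between -1 and -1.1 for 34 of them, and 27 genes outside the set had it between -0.9 and -1. The closest inside were Kcnh2 (-1.004 in controls and -1.04 in Ezh2 knockouts), Acly (-1.35 and -1.004) and Zfp395 (-1.11 and -1.0045), and the closest outside were Arhgap18 (-1.27 and -0.999), Mcam (-1.04 and -0.997) and Pla2g15 (-1.02 and -0.99).

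**Figure D1:**
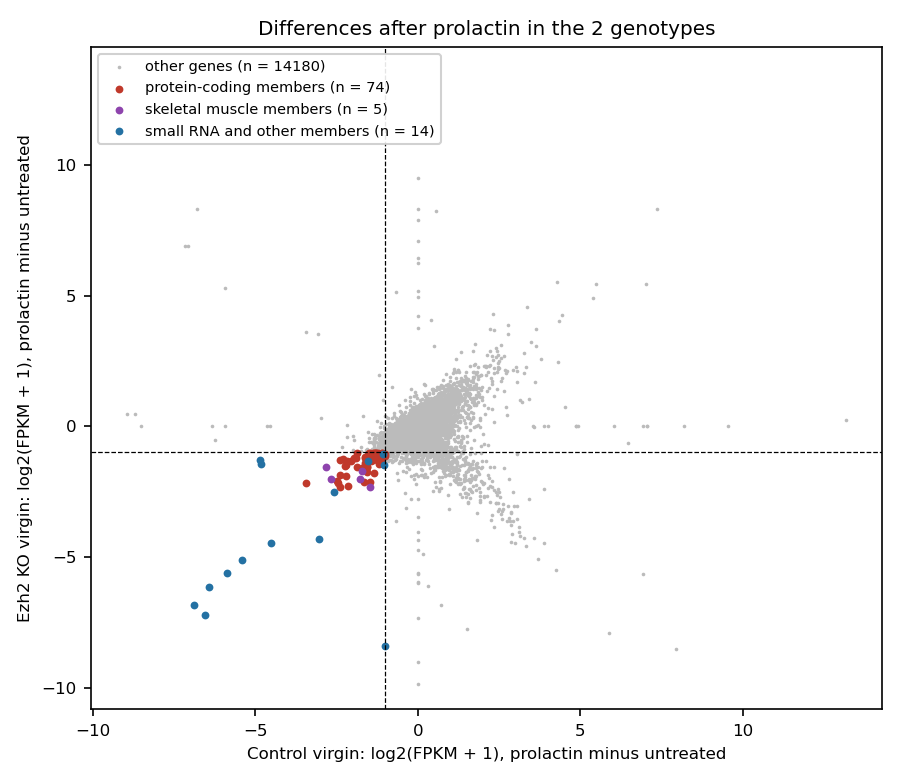
Difference in log2(FPKM + 1) between prolactin-treated and untreated virgin glands for each of the 14273 genes, controls on the x axis and Ezh2 knockouts on the y axis. The dashed lines mark the threshold of -1, and the 93 genes of the set fill the lower left corner, with the 5 skeletal muscle genes and the 14 small RNA, other noncoding and pseudogene members in their own colours.

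Through pregnancy the set was lower late than midway in all 4 genotypes by its median. The difference was smallest in the Ezh2 knockout, at -0.33, where the median over all genes was further below 0, at -0.45. There the direction of the set's median turned under 1 scaling. Between p13 and p18, 64 of the 93 genes were lower by 1 log2 unit or more in controls, where 19.1% of all genes were, and 65 were lower in Ezh1 knockouts, where 12.1% of all genes were. The compound mutant had 60 lower, against 16.0% of all genes. The Ezh2 knockout had 10 lower, against 4.10% of all genes. Members higher at p18 than at p13 numbered 6 in controls, or 6.45% against 3.55% of all genes, and 2 in Ezh1 knockouts, or 2.15% against 1.56%. They numbered 4 in Ezh2 knockouts, or 4.30% against 1.10%, and 1 in compound mutants, or 1.08% against 1.66%. Among the 79 protein-coding members the counts were 2, 1, 1 and 1 in the same order. The median difference over the set was -1.52 in controls, -1.29 in Ezh1 knockouts, -0.33 in Ezh2 knockouts and -1.30 in compound mutants. Over all genes the same median was -0.46, -0.48, -0.45 and -0.48. Scaling every group to a common upper quartile moved the median over all genes in controls to -0.04. On that scale the set's median was -1.12 in controls, -0.90 in Ezh1 knockouts and -1.01 in compound mutants. In Ezh1 knockouts 37 members were lower, and the number lower over all genes went from 1732 to 695. In Ezh2 knockouts the median's direction turned, to 0.10 with 4 members lower. There the number lower over all genes went from 585 to 109. Of the 79 protein-coding members, 55 were lower at p18 than at p13 in all 4 genotypes by any amount, and G0s2 alone was higher in all 4. By any amount, 73 of the 79 were lower in controls, 77 in Ezh1 knockouts, 58 in Ezh2 knockouts and 77 in compound mutants. Over all 13448 protein-coding genes the same counts were 11141, 11793, 12191 and 11172, so lower values were common to most genes. The members' share was below that of all protein-coding genes in Ezh2 knockouts and above it in the other genotypes. The share of all genes lower in all 4 was not computed.

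Within p13 the Ezh2 knockout stood below the other genotypes for many of the genes. At p13, 33 of the 93 genes were lower by 1 log2 unit or more in the Ezh2 knockout than in the control, against 6.59% of all genes, and 5 were higher, against 2.65%. The median over the set was -0.75, against 0.01 over all genes. Without the muscle genes 25 of 74 protein-coding members were lower and 1 was higher, with a median of -0.76. Against the Ezh1 knockout, a comparison that does not use the control value and was chosen after seeing the data, 24 members were lower and 2 higher (backgrounds 3.81% and 1.11%), with a median of -0.60. The p13 Ezh2 knockout held the lowest of the 4 p13 values for 61 of the 79 protein-coding members, or 77.2%, against 32.1% of all protein-coding genes.

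Outside the muscle genes, the compound mutant, with the same Ezh2 deletion, did not share the low p13 values. Against the control it had 9 members lower (3.19% of all genes) and 12 higher (3.12%), with a median of -0.00. All 5 muscle genes were among the 9, and without them 4 of the 74 protein-coding members were lower. Against the Ezh2 knockout it had none lower (0.666%) and 21 higher (2.80%), with a median of 0.58. The Ezh1 knockout at p13 had 9 members lower (2.28%) and 9 higher (2.10%) than the control, with a median of -0.04, and 5 of the 9 lower members were the muscle genes. The medians near 0 of the compound mutant and the Ezh1 knockout against the control changed sign or reached 0 under other scalings, with highest values of 0.11 and 0.01 when groups were scaled to a common sum without milk proteins. These comparisons share group values with one another, so each is given only for itself.

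At p18 the Ezh2 knockout lay nearer the control than at p13 by the median of the set, and above it rather than below. The Ezh2 knockout had 9 members lower than the control (2.14%) and 13 higher (2.38%), with a median of 0.32. Without the muscle genes 0 of the 74 protein-coding members were lower and 11 higher, with a median of 0.40. The Ezh1 knockout had 8 lower (1.39%) and 9 higher (1.21%), with a median of 0.15, and 5 of the 9 higher members were the muscle genes. Without these, 4 of the 74 protein-coding members were lower and 2 higher. The compound mutant had 12 lower (1.55%) and 2 higher (1.23%), with a median of 0.04 that turned to -0.11 with a common sum. All 5 muscle genes were among the 12 lower. Against the Ezh2 knockout, 6 members were lower in the compound mutant (1.40%) and 0 higher (1.16%). With a common sum 21 members were lower, and 13 when that sum left out milk proteins. The background rose too. Over all genes 200 were lower unscaled, 610 with a common sum and 360 when that sum left out milk proteins. Between the Ezh2 and the Ezh1 knockout, 6 were lower in the Ezh2 knockout (0.939%) and 7 higher (1.04%), and 5 of the 6 lower members were the muscle genes. Without these, 0 of the 74 protein-coding members were lower and 4 higher. The p18 control held the lowest of the 4 p18 values for 43 of the 79 protein-coding members, or 54.4%, against 32.0% of all protein-coding genes.

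**Figure D2:**
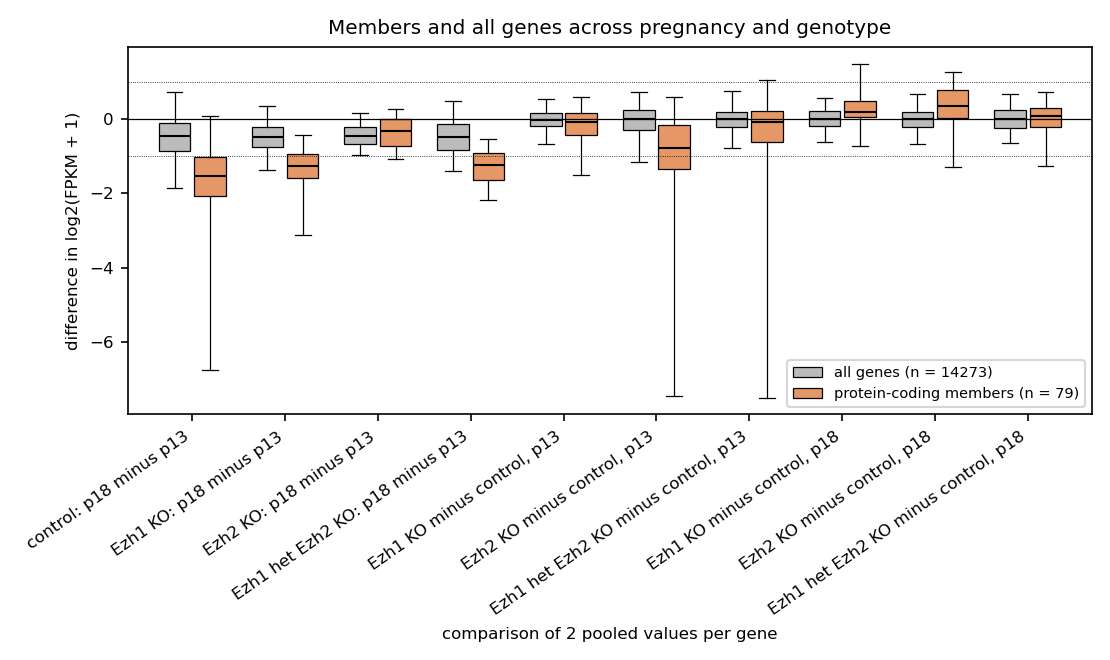
Differences in log2(FPKM + 1) between stages and between genotypes for the 79 protein-coding members and for all 14273 genes. Boxes span the quartiles with the median as a line, whiskers reach the 5th and 95th percentiles over genes, and the dotted lines mark 1 log2 unit: the members' median is near -1.5 for p18 against p13 in controls, near -0.3 in Ezh2 knockouts, and near -0.8 for the Ezh2 knockout against the control at p13.

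The levels of pregnant glands were also placed against the virgin values of the same genotype. Because the virgin values chose the genes, this is a description. At p13 in controls, 31 of the 79 protein-coding members were at or above the untreated virgin level, 44 lay between the virgin levels and 4 were at or below the prolactin-treated level. At p13 in Ezh2 knockouts the counts were 12, 37 and 30. At p18 they were 6, 31 and 42 in controls and 5, 36 and 38 in Ezh2 knockouts. By the threshold of 1 log2 unit, 25 members were lower in the p13 control than in the untreated virgin control (2.76% of all genes) and 7 higher (9.12%), and 1 was lower (5.60%) and 59 higher (9.84%) than in the treated one. In Ezh2 knockouts at p13, 50 were lower than in the untreated virgin (9.11%) and 4 higher (11.0%), and 3 were lower (9.53%) and 29 higher (13.1%) than in the treated one. At p18 in controls the counts were 67 lower (17.8%) and 2 higher (7.80%) against the untreated virgin, and 18 lower (18.2%) and 22 higher (7.13%) against the treated one. At p18 in Ezh2 knockouts they were 67 lower (15.6%) and 1 higher (5.35%), and 2 lower (15.4%) and 19 higher (6.33%). Nothing is read from these shares, since the choice of genes fixed that the treated level is low and the untreated level high. Between the virgin genotypes themselves, 3 members were lower in the Ezh2 knockout (0.911%) and 1 higher (3.35%) without prolactin, and 1 was lower (2.71%) and 1 higher (0.764%) with it. In bulk tissue, fewer cells of a type and less RNA per cell cannot be told apart.

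**Figure D3:**
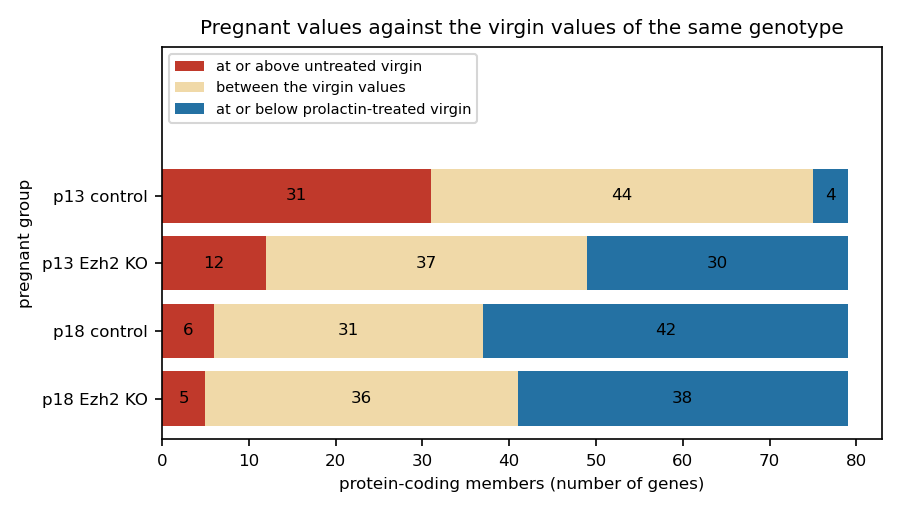
Number of the 79 protein-coding members whose level in a pregnant gland was at or above the untreated virgin level, between the virgin levels, or at or below the prolactin-treated virgin level of the same genotype. The lowest class holds 4 members at p13 and 42 at p18 in controls, and 30 and 38 in Ezh2 knockouts.

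Adipocyte transcripts moved with the set in pregnancy but not after prolactin. The summed FPKM of 15 adipocyte markers was 33220 in the p13 control, 21112 in the Ezh1 knockout, 13074 in the Ezh2 knockout and 23654 in the compound mutant, and at p18 it was 6581, 11390, 14136 and 10613 in the same order. From p13 to p18, 14 of the 15 markers were lower by 1 log2 unit or more in controls, with a median of -2.56. In Ezh2 knockouts 0 were, with a median of -0.09. The shares over all genes were 19.1% and 4.10%, so the 0 in Ezh2 knockouts is near the background. In the Ezh2 knockout at p13, 11 of the 15 were lower than in the control (6.59% of all genes), with a median of -1.34. At p18 8 were higher (2.38%), with a median of 1.04. After prolactin in virgins the sum was higher, not lower, at 58406 against 52960 in controls and 62195 against 37943 in Ezh2 knockouts. The markers were not higher as a class in controls, where 2 were lower by the threshold and 1 higher, with a median of -0.15. In Ezh2 knockouts 1 was lower and 1 higher, with a median of 0.40. Of all genes, 1.72% were lower and 4.76% higher in controls, and 4.08% and 2.75% in Ezh2 knockouts. Cebpa was the only one of the 15 in the set. The part of adipocyte content in the pregnancy values of the set was not tested.

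Fibroblast and matrix markers were lower at p18 in all 4 genotypes, the Ezh2 knockout included. Their sum over 15 genes was 6176 in the p13 control, 5470 in the Ezh1 knockout, 3605 in the Ezh2 knockout and 4817 in the compound mutant, and lay between 1324 and 1893 at p18. From p13 to p18, all 15 were lower by the threshold in controls (19.1% of all genes), with a median of -1.69. In Ezh2 knockouts 11 were lower (4.10%), with a median of -1.42. In the Ezh2 knockout 6 were lower than in the control at p13 (6.59%), with a median of -0.73. At p18 none was lower (2.14%) or higher (2.38%) by the threshold, with a median of -0.36. After prolactin the sum went from 3443 to 3043 in controls and from 3725 to 4229 in Ezh2 knockouts. Fbn1 was the only one of the 15 in the set. Other markers differed between the same pregnant groups. The summed FPKM of 15 milk protein genes, which mark secretory epithelium, was 113668 in the p13 Ezh2 knockout against 14434 in the p13 control, and 248024 against 466577 at p18. The sum of 8 erythroid genes was 1098 against 5067 at p13 and 4826 against 140 at p18. Of 11 nerve and Schwann cell genes that reached 1 FPKM, 6 were lower by the threshold in the p13 Ezh2 knockout than in the p13 control. Their median was -1.30, and 6.59% of all genes were lower. None of the 93 genes is in these 3 lists, and their part in the values of the set was not tested. Endothelial and pericyte markers had no gene past the threshold in either direction after prolactin in either genotype.

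The members with a known part in fat cells or lipid metabolism numbered 13. In controls 8 of them were lower at p18 than at p13 (19.1% of all genes) and 2 were higher (3.55%), with a median of -2.05. In Ezh2 knockouts 0 were lower (4.10%) and 1 was higher (1.10%), so the 0 is near the background. The median there was -0.01 and turned to 0.43 with a common upper quartile. Within p13 the Ezh2 knockout was below the control by the threshold for 4 of the 13 (6.59%) and above it for 1 (2.65%). At p18 it was above for 6 (2.38%) and below for 0 (2.14%), with a median of 0.90.

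Irs3, an insulin receptor substrate of rodent adipocytes, was 17.0 FPKM in untreated control virgins and 2.25 after prolactin, and 15.3 and 2.61 in Ezh2 knockout virgins. Irs3 at p13 was 19.8 in controls, 11.3 in Ezh1 knockouts, 6.69 in Ezh2 knockouts and 12.3 in compound mutants, and at p18 it was 2.33, 3.61, 6.62 and 3.83 in the same order. Irs3 was thus 8.47-fold lower at p18 than at p13 in controls, while the Ezh2 knockout held nearly the same level at both stages. The virgin levels chose the gene, so nothing is read from the pregnant levels against them.

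Adrb3 encodes the beta-3 adrenergic receptor, through which noradrenaline drives fat breakdown. Its values were 99.8 and 18.2 in control virgins before and after prolactin and 101 and 27.4 in Ezh2 knockout virgins. Adrb3 at p13 was 37.8, 62.2, 25.9 and 67.8 in controls, Ezh1 knockouts, Ezh2 knockouts and compound mutants, and at p18 8.36, 24.8, 13.9 and 9.96. The compound mutant was the highest and the Ezh2 knockout the lowest at p13, and the Ezh1 knockout was the highest at p18.

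Cebpa, a transcription factor needed for the adipocyte state, was 289 and 91.9 in control virgins and 235 and 99.4 in Ezh2 knockout virgins. Cebpa at p13 was 143, 117, 82.4 and 148 in the 4 genotypes in the order above, and at p18 39.8, 61.7, 82.8 and 62.0. It was 3.58-fold lower at p18 than at p13 in controls and held its level in Ezh2 knockouts. The regulators of glucose and fat handling followed a similar course. Pfkfb3, an activator of glycolysis, was 175 and 64.3 in control virgins and 157 and 70.6 in Ezh2 knockout virgins, with 86.4, 66.7, 39.7 and 76.3 at p13 and 11.9, 20.8, 35.1 and 20.6 at p18. Tusc5 (Trarg1), a partner of glucose transporter vesicles in fat cells, was 116 and 41.7 against 126 and 59.5 in virgins, with 116, 42.7, 29.0 and 48.7 at p13 and 10.7, 14.6, 30.5 and 19.6 at p18. The differences of Pfkfb3 and Tusc5 between Ezh2 knockout and control were -1.103 and -1.97 at p13 and 1.49 and 1.43 at p18, so both changed sides between the stages.

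Idh1, the cytosolic isocitrate dehydrogenase that makes NADPH, was 257 and 92.4 in control virgins and 171 and 84.2 in Ezh2 knockout virgins. Idh1 at p13 was 135, 128, 75.9 and 137 and at p18 28.5, 43.9, 61.5 and 47.4. O3far1 (Ffar4), a receptor for long-chain fatty acids, was 19.9 and 4.30 against 16.1 and 6.30 in virgins, 9.25, 7.01, 4.28 and 8.66 at p13 and 1.48, 2.99, 3.62 and 3.13 at p18. For both genes the Ezh2 knockout was the lowest genotype at p13 and the highest at p18.

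The genes of lipid synthesis did not follow that course. Acly makes cytosolic acetyl-CoA for fatty acids and was 152 and 58.9 in control virgins and 122 and 60.5 in Ezh2 knockout virgins. Acly at p13 was 55.0 in controls, 222 in Ezh1 knockouts, 171 in Ezh2 knockouts and 397 in compound mutants, and at p18 228, 85.1, 127 and 160.3. The control was the lowest genotype at p13 and the highest at p18. Scd2, a fatty acid desaturase, was 87.6 and 27.6 against 94.4 and 41.7 in virgins, 32.3, 62.6, 42.2 and 103 at p13 and 34.5, 15.5, 44.1 and 32.0 at p18. Insig1, which retains the sterol sensor SCAP and so restrains sterol synthesis, was 65.4 and 20.8 against 57.1 and 20.9 in virgins. Insig1 at p13 was 35.9, 47.0, 34.5 and 89.5 and at p18 44.2, 12.4, 37.3 and 29.2. Acly, Scd2 and Insig1 were all highest in the compound mutant at p13 and lowest in the Ezh1 knockout at p18. Of 13 genes of sterol synthesis and uptake, 1 in controls and 2 in Ezh2 knockouts were lower after prolactin and 0 were higher, and of 28 insulin and fasting response genes 5 were lower and 3 higher in controls and 3 lower and 8 higher in Ezh2 knockouts.

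G0s2, an inhibitor of the triglyceride lipase ATGL, was 396 and 84.6 in control virgins and 318 and 114 in Ezh2 knockout virgins. G0s2 at p13 was 310.5, 267, 496 and 467 and at p18 902, 545, 598 and 1169. It was the only member higher at p18 than at p13 in all 4 genotypes, by 1.53 log2 units in controls, 1.03 in Ezh1 knockouts, 0.27 in Ezh2 knockouts and 1.32 in compound mutants. Agps, an enzyme of ether lipid synthesis, was 79.8 and 21.1 against 47.5 and 23.0 in virgins and between 11.3 and 18.0 in all 8 pregnant groups, below both treated virgin levels.

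Akr1c18 encodes the hydroxysteroid dehydrogenase that inactivates progesterone. It was 28.6 and 11.0 in control virgins and 20.4 and 8.02 in Ezh2 knockout virgins. Akr1c18 at p13 was 13.4, 34.4, 3.01 and 12.5 and at p18 2.46, 6.98, 7.35 and 2.01. The Ezh1 knockout was highest and the Ezh2 knockout lowest at p13, and the Ezh2 knockout alone was higher at p18 than at p13, by 1.06 log2 units, where the other genotypes were lower by more than 2 units.

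**Figure D4:**
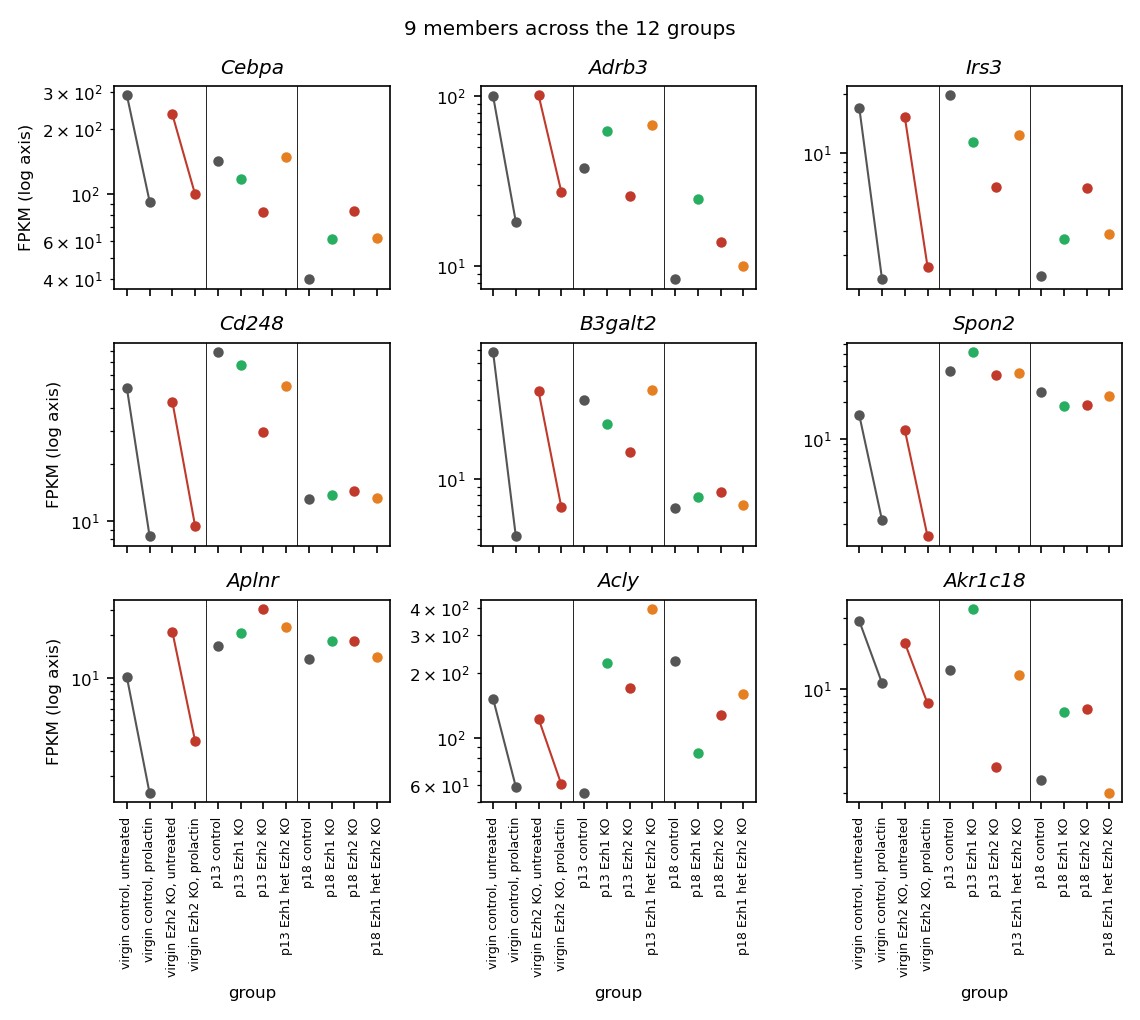
FPKM of 9 members in the 12 groups on log axes, each point 1 pooled value, coloured by genotype, with lines joining untreated and prolactin-treated virgin glands. Cebpa, Adrb3, Irs3, Cd248 and B3galt2 are lower at p18 than at p13 in controls, and Spon2 and Aplnr in every genotype. Acly and Akr1c18 differ in direction between genotypes.

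Stromal and secreted factors numbered 13. All 13 were lower at p18 than at p13 by 1 log2 unit or more in Ezh1 knockouts (12.1% of all genes). The same threshold was passed by 11 in controls (19.1%), 11 in compound mutants (16.0%) and 3 in Ezh2 knockouts (4.10%). With a common upper quartile 7 passed it in Ezh1 knockouts and 0 in Ezh2 knockouts. Over all genes that scaling took the number lower from 1732 to 695 in Ezh1 knockouts and from 585 to 109 in Ezh2 knockouts. At p13 the Ezh2 knockout was below the control by the threshold for 7 of the 13 (6.59% of all genes), with a median of -1.02. At p18 it was below for 0 (2.14%).

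Cd248 (endosialin), a surface protein of fibroblasts and pericytes, was 50.9 and 8.30 in control virgins and 43.1 and 9.42 in Ezh2 knockout virgins. Cd248 at p13 was 78.9, 67.4, 29.6 and 52.3 in controls, Ezh1 knockouts, Ezh2 knockouts and compound mutants, and at p18 13.0, 13.8, 14.5 and 13.3. The Ezh2 knockout differed from the control by -1.38 log2 units at p13, and the p18 values were nearly equal. B3galt2, a glycosyltransferase, had the largest log2 difference of any protein-coding member in controls, from 58.6 to 4.51 (-3.44). In Ezh2 knockout virgins it was 33.96 and 6.75, with 29.9, 21.7, 14.6 and 34.7 at p13 and 6.73, 7.82, 8.32 and 6.97 at p18. Spon2, a secreted matrix protein, was 15.6 and 2.13 in control virgins and 11.9 and 1.58 in Ezh2 knockout virgins, and led the protein-coding members when the smaller of the 2 differences is ranked. Spon2 at p13 was 36.5, 51.9, 33.6 and 34.8 and at p18 24.2, 18.6, 19.1 and 22.4, all above the untreated virgin level.

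Il33 encodes an alarm cytokine held in stromal and endothelial nuclei. It was 16.1 and 6.44 in control virgins and 10.3 and 3.12 in Ezh2 knockout virgins. Il33 at p13 was 20.8, 15.2, 2.22 and 11.0 and at p18 1.64, 3.19, 4.26 and 1.93, so the Ezh2 knockout differed from the control by -2.76 log2 units at p13 and by 0.99 at p18. Fgf2, a fibroblast growth factor, was 9.50 and 3.38 against 8.25 and 3.39 in virgins, 4.88, 3.85, 1.48 and 4.53 at p13 and 0.575, 1.01, 1.98 and 0.624 at p18, with the same change of side. Fbn1, the main microfibril protein, was 32.3 and 10.9 against 26.8 and 12.0 in virgins, 49.3, 46.7, 23.7 and 31.6 at p13 and 11.1, 7.52, 8.02 and 7.57 at p18. Fbn1 was lower by over 1 log2 unit between the stages in all 4 genotypes.

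Crabp1, a retinoic acid carrier, was 5.79 and 1.67 in control virgins and 8.75 and 1.84 in Ezh2 knockout virgins, 12.4, 13.0, 16.7 and 10.8 at p13 and 5.07, 3.94, 5.73 and 10.3 at p18. Kank2, an adaptor at cell adhesions, was 17.6 and 5.66 against 18.5 and 6.89 in virgins, 15.3, 14.4, 10.0 and 14.4 at p13 and 4.76, 5.00, 6.08 and 4.19 at p18. Igfbp5, an IGF-binding protein also made by mammary epithelium, was 269 and 91.6 against 261 and 122 in virgins, 371, 394, 556 and 369 at p13 and 204, 174, 214 and 182 at p18. Crabp1 and Igfbp5 were highest in the Ezh2 knockout at p13, unlike most of the group. The remaining stromal members were Arsi, Scara3, Itga11 and Lrrc17. At p13 Arsi was 7.90, 10.5, 3.18 and 6.88, Scara3 was 21.7, 22.5, 9.67 and 13.98, and Itga11 was 4.45, 2.33, 0.728 and 1.95, each lowest in the Ezh2 knockout.

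Transcription regulators numbered 9, and all 9 were lower at p18 than at p13 in controls, 6 of them by 1 log2 unit or more. Of all 13448 protein-coding genes, 11141 were lower in controls by any amount and 2620 by 1 log2 unit or more. Hoxc6, a position-determining homeobox factor of the mammary region, was 14.7 and 3.79 in control virgins and 16.5 and 4.73 in Ezh2 knockout virgins. Hoxc6 at p13 was 9.20, 9.35, 5.64 and 10.5 and at p18 1.89, 2.75, 4.78 and 2.40. Its cluster neighbour Hoxc5 was 4.09 and 1.504 against 5.22 and 1.87 in virgins, 2.71, 1.98, 1.18 and 2.10 at p13 and 0.307, 0.783, 1.32 and 0.641 at p18. Both Hox genes were lowest in the Ezh2 knockout at p13 and highest in it at p18.

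Dmrt2, a DM-domain factor, was 20.2 and 4.82 in control virgins and 18.2 and 5.57 in Ezh2 knockout virgins, 18.9, 13.9, 5.87 and 15.4 at p13 and 2.30, 3.90, 7.49 and 3.3996 at p18. Prrx1, a homeobox factor of mesenchyme, was 30.3 and 10.3 against 25.3 and 11.4 in virgins, 26.9, 22.1, 9.69 and 23.1 at p13 and 4.10, 6.50, 7.80 and 4.44 at p18. Its relative Prrx2 was 2.81 and 0.299 against 3.07 and 0.393 in virgins, 6.18, 6.54, 3.94 and 6.25 at p13 and 1.35, 1.56, 1.64 and 1.70 at p18. Dmrt2 and Prrx1 differed between Ezh2 knockout and control by -1.54 and -1.38 log2 units at p13. Hic1, a repressor active in quiescent mesenchyme, was 5.75 and 1.56 against 6.77 and 2.18 in virgins, 8.06, 9.54, 5.28 and 8.09 at p13 and 3.07, 2.84, 2.76 and 2.45 at p18. Rcor2, Bahcc1 and Zfp395 completed the group and were lower by less than 1 log2 unit between the stages in controls.

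Receptors and vessel proteins numbered 8. Aplnr, the apelin receptor of endothelial cells, was 10.1 and 1.51 in control virgins and 21.1 and 3.55 in Ezh2 knockout virgins. Aplnr at p13 was 16.8, 20.8, 30.6 and 22.9 and at p18 13.5, 18.2, 18.1 and 14.03. For Aplnr the Ezh2 knockout was the highest genotype at p13. Myct1, another endothelial gene, was 4.28 and 0.890 against 7.10 and 0.870 in virgins, 4.15, 4.66, 4.24 and 4.38 at p13 and 1.82, 3.02, 3.19 and 2.33 at p18. Tspan18, a tetraspanin of endothelial cells, was 11.2 and 3.504 against 11.5 and 4.26, then 7.83, 8.01, 8.28 and 7.57, and then 2.90, 3.48, 3.62 and 2.81 in the same order of stages. At p13 the 4 genotypes of Myct1 and of Tspan18 were nearly level, whereas those of the fat and stromal genes above were spread.

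Ptgfr, the prostaglandin F receptor, was 7.28 and 1.62 in control virgins and 8.06 and 2.10 in Ezh2 knockout virgins, 2.62, 2.01, 0.995 and 3.16 at p13 and 0.569, 0.745, 1.53 and 0.784 at p18. Mrgprf, an orphan G protein-coupled receptor, was 3.93 and 0.682 against 5.33 and 1.18 in virgins, 4.86, 5.30, 2.18 and 3.66 at p13 and 1.05, 1.09, 1.29 and 0.922 at p18. Both were lowest in the Ezh2 knockout at p13. Rtn4rl1, Plxna1 and the potassium channel gene Kcnh2 were the other members here. Kcnh2 had the largest ratio between the stages in controls, with 2.93 at p13 and 0.205 at p18, beside 1.25 and 1.27 in Ezh2 knockouts. That ratio rests on a value near 0. On the log2(FPKM + 1) scale another member of the group had the largest difference, at -2.14.

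Immune and blood cell genes numbered 6, with the red cell glycophorin gene Gypc among them. All 6 were lower by 1 log2 unit or more at p18 than at p13 in controls and 0 in Ezh2 knockouts. The shares over all genes were 19.1% and 4.10%, so the 0 in Ezh2 knockouts is near the background. Cd209f, a C-type lectin of tissue macrophages, was 50.05 and 8.72 in control virgins and 33.3 and 13.0 in Ezh2 knockout virgins. Cd209f at p13 was 37.7, 46.9, 16.7 and 64.8 and at p18 10.9, 17.3, 18.2 and 10.3. Its paralog Cd209g was 11.9 and 1.60 against 9.65 and 3.51 in virgins, 8.86, 12.3, 4.52 and 21.4 at p13 and 2.39, 4.21, 4.01 and 3.86 at p18. Reads of such close paralogs may be split between them in the authors' counting. Both lectins were highest in the compound mutant at p13. The other macrophage markers did not follow them after prolactin: of 13, 1 was lower and 1 higher in each genotype, and their sum was 1059 and 995 in control virgins and 1054 and 785 in Ezh2 knockout virgins.

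Cpa3 and Cma1 encode proteases stored in mast cell granules. Cpa3 was 34.2 and 15.0 in control virgins and 28.3 and 12.7 in Ezh2 knockout virgins, 21.4, 13.3, 8.003 and 16.1 at p13 and 5.07, 5.51, 6.04 and 4.88 at p18. Cma1 was 49.5 and 23.8 against 46.7 and 21.6, then 32.7, 26.5, 12.0 and 25.6, and then 9.10, 9.17, 7.80 and 8.57. Mcpt4, a further granule protease, was 70.4 and 38.6 in control virgins and 67.4 and 30.4 in Ezh2 knockout virgins, just short of the threshold in controls at -0.85. In contrast Hdc, which makes histamine in the same cells, was higher after prolactin, at 3.11 and 10.5 in controls and 2.99 and 9.54 in Ezh2 knockouts. The summed FPKM of 10 mast cell markers was 237 and 154 in control virgins and 210.0 and 127 in Ezh2 knockout virgins. Of the 9 that reached 1 FPKM, 2 were lower by the threshold and 1 higher in controls, with a median of 0.13. In Ezh2 knockouts 3 were lower and 1 higher, with a median of 0.05, so the markers as a class did not move with the sum. The immune checkpoint protein gene 4632428N05Rik (Vsir) was 36.6, 21.3, 12.8 and 18.5 at p13, lowest in the Ezh2 knockout, and Gypc was 13.97, 16.4, 11.1 and 17.0.

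Intracellular signalling genes numbered 14. At p18, 11 were lower by the threshold than at p13 in controls (7 with a common upper quartile) and 0 in Ezh2 knockouts. The shares over all genes were 19.1% and 4.10%, so the 0 in Ezh2 knockouts is near the background. A common upper quartile took the number lower over all genes in controls from 2724 to 1427. Smpd3, a neutral sphingomyelinase, was 13.7 and 2.22 in control virgins and 5.56 and 1.64 in Ezh2 knockout virgins. Smpd3 at p13 was 21.6, 6.98, 0.902 and 6.49 and at p18 1.22, 2.56, 0.999 and 0.223. The Ezh2 knockout differed from the control by -3.57 log2 units at p13, the widest such difference among members outside the muscle genes. Rasd1, a small G protein induced by dexamethasone in other cells, was 79.6 and 18.5 against 52.6 and 20.6 in virgins, 29.1, 31.9, 16.9 and 41.3 at p13 and 10.8, 13.4, 19.1 and 15.1 at p18. It was lower after the injection although 10 of 18 glucocorticoid-induced genes were higher in controls and 11 in Ezh2 knockouts, such as Fkbp5, which was 11.8 and 158 in controls and 11.2 and 158 in Ezh2 knockouts.

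Bcar3, a guanine exchange adaptor, was 23.1 and 7.10 against 30.7 and 8.49 in virgins, 18.9, 10.4, 5.87 and 11.8 at p13 and 2.58, 3.74, 6.93 and 3.47 at p18. Dact2, a modulator of Wnt and TGF-beta signalling, was 8.996 and 2.47 against 7.14 and 2.36 in virgins, 15.3, 16.6, 22.7 and 18.7 at p13 and 11.1, 12.0, 15.4 and 9.27 at p18. Bcar3 was lowest in the Ezh2 knockout at p13 and highest in it at p18, and Dact2 was highest in it at both stages. Cdkn2c, an inhibitor of cyclin-dependent kinases and the most abundant signalling member in virgins, was 288 and 107 against 210.0 and 98.8 in virgins, 87.8, 121, 76.5 and 144 at p13 and 21.5, 38.2, 57.8 and 45.0 at p18. Mknk2, a kinase of the translation factor eIF4E, was 199 and 92.0 against 199.9 and 94.1 in virgins and 2.03-fold lower at p18 than at p13 in controls. Efhd1, Rasl12, Map2k6, 2010110P09Rik (Chp2), Marcks, Rasgrf2 and Dtx2 were among the rest, and of these 7 Rasgrf2 had the widest stage difference in controls, from 9.001 to 0.848.

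**Figure D5:**
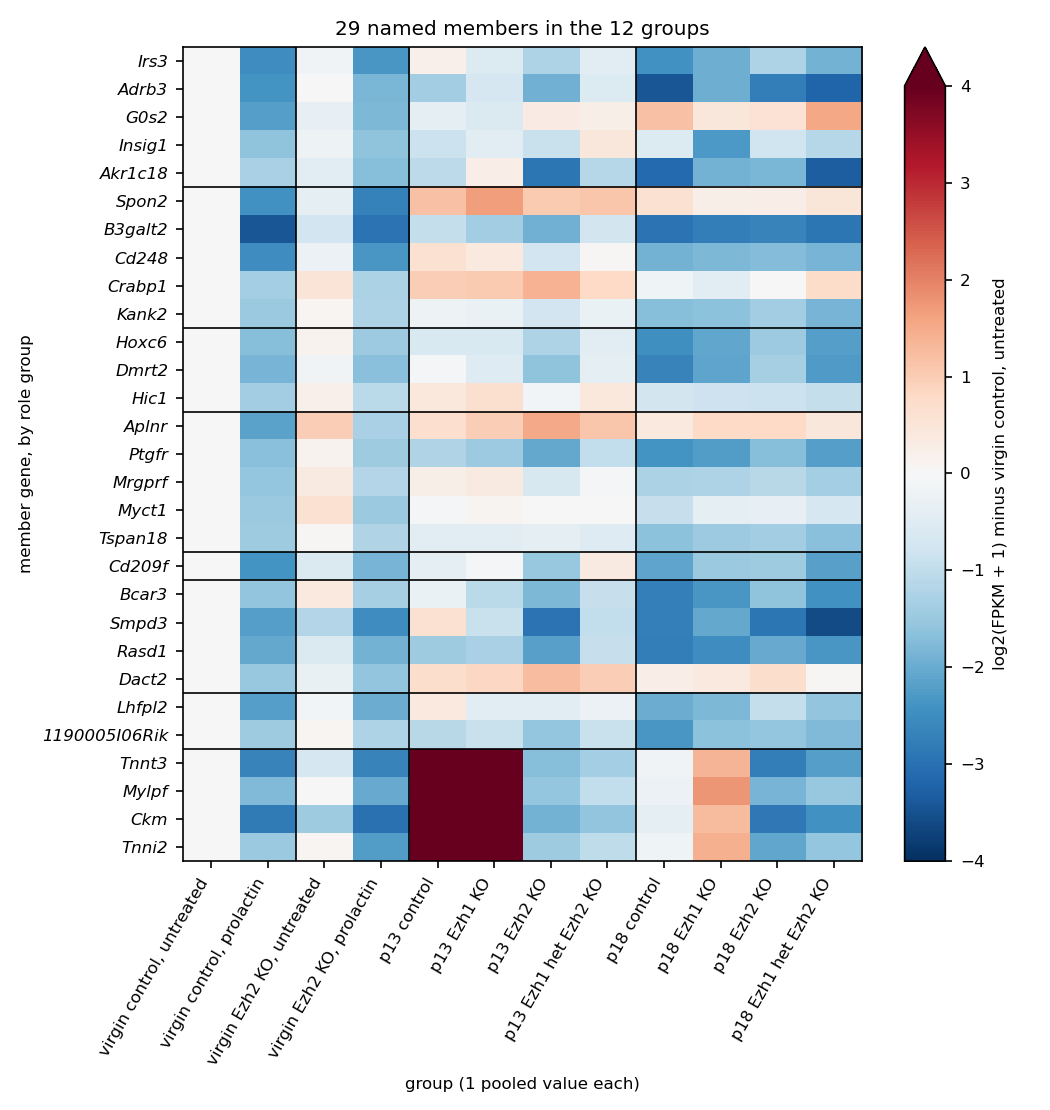
Difference in log2(FPKM + 1) from the untreated control virgin value for 29 protein-coding members, in rows grouped by role, over the 12 groups in columns, 1 pooled value each. Blue is lower and red higher, values above 4 share the darkest red, and the 4 muscle genes at the bottom are dark red in the p13 control and p13 Ezh1 knockout only.

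The STAT5 site was searched in the promoters of the members because prolactin acts through this factor. RefSeq promoters (assembly GRCm38.p6, 250 bases before to 50 after each start) were found for 56 of the 93 members, or 60.2%, below the 80% needed for a comparison of shares, so that comparison is void. The letters TTCNNNGAA, whose match is the same on both strands, were in 2 of the 56 and in 8.47% of 27025 promoters of the same length. The holders were Lrrc17, a secreted leucine-rich repeat protein, and Dtx2, a ubiquitin ligase of Notch signalling. A match is a description and not a site shown to be bound. The 250 bases before the start are printed 5′ to 3′ for the plus strand with the match in capitals, at chr5:21543277-21543526 for Lrrc17 and chr5:135994550-135994799 for Dtx2, to show where it lies, from base -128 in Lrrc17 and from base -23 in Dtx2 counted from the start.
Lrrc17: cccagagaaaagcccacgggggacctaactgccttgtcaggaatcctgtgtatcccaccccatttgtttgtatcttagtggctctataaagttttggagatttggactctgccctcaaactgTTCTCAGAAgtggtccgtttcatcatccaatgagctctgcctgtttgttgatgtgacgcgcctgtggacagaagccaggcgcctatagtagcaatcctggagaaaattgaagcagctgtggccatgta
Dtx2: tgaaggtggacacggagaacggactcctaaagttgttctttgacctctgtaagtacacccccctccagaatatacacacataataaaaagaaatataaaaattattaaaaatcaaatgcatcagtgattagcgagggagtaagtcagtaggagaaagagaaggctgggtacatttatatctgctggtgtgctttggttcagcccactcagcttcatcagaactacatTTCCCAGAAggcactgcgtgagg
Lrrc17 was 15.6 and 6.36 in control virgins and 13.9 and 5.81 in Ezh2 knockout virgins, 11.8, 15.4, 7.52 and 12.8 at p13 and 2.98, 3.11, 3.56 and 3.41 at p18. Dtx2 was 18.9 and 8.46 against 16.6 and 7.09 in virgins, 14.8, 12.2, 9.15 and 13.2 at p13 and 4.49, 5.06, 7.25 and 5.28 at p18. Both were lowest in the Ezh2 knockout at p13 and highest in it at p18, like many members without a match.

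The 5 skeletal muscle members, Ckm, Tnnt3, Tnni2, Mylpf and Pvalb, encode creatine kinase and contractile or calcium-binding proteins of fast fibres, which the gland itself does not contain. Ckm was 8.13 and 0.291 in control virgins and 2.40 and 0.142 in Ezh2 knockout virgins, and at p13 it was 1404 in controls, 383 in Ezh1 knockouts, 1.45 in Ezh2 knockouts and 2.07 in compound mutants. Tnnt3 was 7.56 and 0.354 against 4.38 and 0.349 in virgins and 1469.9, 355, 1.64 and 2.31 at p13. Tnni2 was 6.88 and 1.83 against 7.26 and 0.673 in virgins and 1029.7, 252, 1.95 and 2.88 at p13, and Mylpf was 8.05 and 1.66 against 8.20 and 1.26 and then 818, 267, 2.08 and 3.55. Pvalb reached 514 in the p13 control. At p18 the Ezh1 knockout was the highest genotype for all 5, with values from 12.2 for Pvalb to 30.01 for Mylpf. Their virgin levels were low, at most 8.20 FPKM. Acta1, the main actin of the same fibres, went the other way after prolactin, from 13.0 to 273 in controls and from 8.46 to 431 in Ezh2 knockouts. It was the only one of the 16 muscle genes higher by the threshold in either genotype. In controls 9 of the 16 were lower (1.72% of all genes), with a median of -1.41. In Ezh2 knockouts 5 were lower (4.08%), with a median of -0.51.

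Of the protein-coding members with no role above, Lhfpl2, a tetraspan membrane protein, was 44.5 and 8.84 in control virgins and 41.3 and 10.4 in Ezh2 knockout virgins, 58.9, 32.0, 32.6 and 37.4 at p13 and 10.4, 12.1, 22.6 and 14.1 at p18. The uncharacterised 1190005I06Rik was 21.1 and 7.17 against 22.3 and 8.32 in virgins, 9.12, 10.9, 6.47 and 11.0 at p13 and 3.39, 6.04, 6.48 and 5.52 at p18. Both were higher in the Ezh2 knockout than in any other genotype at p18. Stmn4, Steap3, Aif1l, Uck1, Fam117a, Asb12 and Sept4 were among the others, with Amd1, whose near-identical copies make its values uncertain. H19, an imprinted noncoding RNA of fetal tissues, was 4.02 and 1.40 in control virgins and 3.24 and 1.01 in Ezh2 knockout virgins. H19 at p13 was 67.0, 58.0, 32.0 and 49.4 and at p18 10.4, 9.82, 4.58 and 8.98, far above the virgin values at p13 and lowest in the Ezh2 knockout at both stages. Between p13 and p18 it differed by -2.58, -2.45, -2.57 and -2.33 log2 units in the 4 genotypes, and with Fbn1 and Tspan18 it was 1 of the 3 members lower by 1 log2 unit or more in all 4, which 0.764% of all genes were.

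Small RNA genes entered the set in another way. All 11 were listed at 0 in at least 1 prolactin-treated group, and 7 of the 8 microRNA genes in both, whereas no protein-coding member was at 0 after prolactin. Libraries from polyadenylated RNA hold such genes only as part of longer transcripts, and short genes give unstable FPKM, so a value of 0 is given as listed with no fold. Of 47 small RNA genes with 5 FPKM or more in both untreated groups, 7 were listed at 0 in both treated groups, and of 39 with 5 FPKM or more in both treated groups, 2 were listed at 0 in both untreated groups. The 8 microRNA genes matched 14 mature sequences in RefSeq with 14 distinct seeds (bases 2 to 8), so no seed was shared. Mature sequences of the 3 with the highest untreated values are printed 5′ to 3′, with the seed in capitals, to show that the seeds differ. Their GRCm38.p6 positions are chr13:63301249-63301270 on the minus strand for miR-3074-5p, chr1:195037562-195037583 and chr1:195037600-195037621 on the plus strand for the arms of miR-29c, and chr8:84208685-84208706 and chr8:84208727-84208747 on the plus strand for those of miR-27a.
miR-3074-5p: gUUCCUGCugaacugagccagu
miR-29c-5p: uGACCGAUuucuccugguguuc
miR-29c-3p: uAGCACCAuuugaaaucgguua
miR-27a-5p: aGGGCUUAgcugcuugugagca
miR-27a-3p: uUCACAGUggcuaaguuccgc
Mir3074-1 was 117 in untreated control virgins and 112 in untreated Ezh2 knockout virgins, Mir29c 92.4 and 146, and Mir27a 85.6 and 70.2, and all 3 were listed at 0 in both treated groups. In pregnancy Mir3074-1 was 8.30, 4.54, 14.4 and 11.0 at p13 and 49.4, 41.2, 10.3 and 0 at p18. Mir29c was 7.78, 5.27, 7.96 and 16.8 and then 10.5, 1.13, 5.02 and 0, and Mir27a was 9.85, 51.6, 9.28 and 7.89 and then 11.8, 11.0, 19.6 and 12.7. These values belong to the gene and do not tell its arms apart, and they show no common course through pregnancy. Snord35b, a snoRNA gene with the highest pregnant value of the small RNAs, was 237 and 117 in control virgins and 340.0 and 0 in Ezh2 knockout virgins, and reached 143 in the p13 Ezh1 knockout.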

How the data were processed

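The RNA libraries were made from whole mammary tissue. The authors deposited 1 table of FPKM values with 1 pooled value for each of 12 groups. The submitters' processing notes name CASAVA, FastQC, Trim Galore, BWA, Bowtie, TopHat, Cufflinks, Cuffdiff, HOMER and the mm9 genome for the series as a whole. The step that pooled a group's libraries, and the depth of each library, are not given in the sources used here. The 9 chromatin libraries were not analysed here.

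From the deposited FPKM, differences of log2(FPKM + 1) were taken between groups with Python 3.11.15, pandas 2.3.3, NumPy 2.4.6 and matplotlib 3.10.9, over the 14273 genes with 1 FPKM or more in any group. With 1 value per group no test could be fitted; counts past 1 log2 unit stand beside the same share over all genes. The counting was tested on simulated data. Members matched RefSeq gene names by symbol (87) or synonym (6).

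The members, the 30 gene lists and the comparisons were chosen with earlier results of these data known, and the 7 role groups were assembled after the values were seen. Genes were named by this rule: of the 69 protein-coding members with 5 FPKM or more in an untreated virgin group, the 30 with the largest smaller difference after prolactin, and in each pregnant comparison the 4 with the largest differences in each direction. A few members are not reported here by name. Other members named with values were chosen after those were seen, as were the comparison of Ezh2 with Ezh1 knockouts and the counts without muscle genes. Alternatives were other pseudocounts (0.1 and 5), a filter of 5 FPKM or none, common sums or upper quartiles, and a threshold of 1.5 log2 units.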

Additional observations from a re-analysis of the deposited data

Results flagged for a closer look

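Akr1c18 and Acly differed in direction between genotypes from p13 to p18 by more than 1 log2 unit each way, and the difference was not tested, since each group has 1 pooled value. Akr1c18, which inactivates progesterone, differed by -2.06 log2 units in controls, -2.15 in Ezh1 knockouts and -2.17 in compound mutants, and by 1.06 in Ezh2 knockouts. Acly, which supplies acetyl-CoA for fatty acid synthesis, differed by 2.03 log2 units in controls, and by -1.37 in Ezh1 knockouts and -1.30 in compound mutants.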

How the results depend on the processing

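No paired analysis was possible because each group has 1 pooled value. The number of genes chosen was 195 with a pseudocount of 0.1, 30 with 5, 165 with a common sum, 148 when that sum left out milk protein genes, and 27 with a threshold of 1.5 log2 units, and all 93 genes were among the 195, the 165 and the 148. A common sum moved the median over all genes after prolactin to -0.14 in controls and -0.16 in Ezh2 knockouts. With a pseudocount of 5, members lower at p18 than at p13 numbered 42 in controls, 38 in Ezh1 knockouts, 4 in Ezh2 knockouts and 39 in compound mutants, those lower in the Ezh2 knockout than in the control 18 at p13 and 5 at p18, and at p18 5 were lower in Ezh1 knockouts and 6 in compound mutants. At a threshold of 1.5 log2 units, 31 Ezh1 knockout, 4 Ezh2 knockout and 36 compound mutant values were lower at p18 than at p13. At that threshold, values below the control numbered 4 in the Ezh1 and 16 in the Ezh2 knockout at p13, and 5 in the Ezh1 knockout and 7 in the compound mutant at p18. Ezh2 knockouts had 18 members lower at p18 than at p13 with a pseudocount of 0.1 and 4 with a common upper quartile. That scaling gave 37 in Ezh1 knockouts. Over all genes it gave 109 in Ezh2 knockouts and 695 in Ezh1 knockouts, against 585 and 1732 without it. Among protein-coding members alone 6 were lower at p18 than at p13 in Ezh2 knockouts, and 4, 5 and 6 were below the control at p18 in Ezh1 knockouts, Ezh2 knockouts and compound mutants. Leaving out the muscle genes left 4 below the control in Ezh1 knockouts and 4 in compound mutants at p13, and 4 in Ezh2 knockouts and 7 in compound mutants at p18. Of the main counts recomputed, 31 moved beyond 1.5 times their value and 97 stayed within it. Of the further recomputed counts, 145 moved and 175 stayed. What sets the counts that moved was not tested beyond these settings. Depth per library is unknown, so the counting error of low values, the small RNA genes above all, is unknown too.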

Other observations

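Beside the genes that were lower after prolactin in both genotypes, genes of other lists were higher in both. Over all 14273 genes, 4.76% were higher by 1 log2 unit or more in controls and 2.75% in Ezh2 knockouts. Of 18 glucocorticoid-induced and metallothionein genes, 10 were higher by 1 log2 unit or more in controls and 11 in Ezh2 knockouts, and Mt2 was 133 and 5677 FPKM in control virgins and 121 and 3609 in Ezh2 knockout virgins. Of 34 immediate early genes, 15 were higher in controls and 10 in Ezh2 knockouts, where 2 were lower. Of 17 neutrophil and acute phase genes, 12 and 9 were higher, and S100a9 was 3.46 and 90.6 in controls and 10.3 and 182 in Ezh2 knockouts. None of these genes is a member of the set. Anaesthesia and the first operation preceded the treated sample in both genotypes and cannot be told apart from the hormone.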
